A study of Mus musculus with 4 samples.

Results

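Pitx1 occupancy was examined around Runx2, Sox5 and Sox6, genes for transcription factors that act in skeletal progenitor cells. The members are the ChIP-seq peaks (stretches of DNA enriched after immunoprecipitation of Pitx1) whose midpoint lies in 1 of 3 windows of the mouse genome, build mm9. These are chr17:44300000-45300000 for Runx2, chr6:143600000-144900000 for Sox5 and chr7:122500000-123500000 for Sox6. The windows hold 50 of the 14753 peaks of replicate 1 and 83 of the 25027 peaks of replicate 2. Peaks that overlapped by at least 1 bp between the replicates were joined into 39 replicated regions, of 10274 in all.

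The chromatin came from mouse embryos of the ICR strain at stage E11.5, wild type in genotype, whose hindlimb buds were taken. The 2 Pitx1 libraries were made with the same antibody, and 2 libraries of input DNA without antibody complete the series but have no peak list of their own. Libraries drew on material from 3 independent ChIPs, and the labels do not say that the replicates came from separate embryos, so the spread between them may be technical. Hindlimb buds hold several cell types, which the peaks do not separate, and RNA was not measured, so whether these genes were active in the sampled cells is not known from these data.

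Pitx1 is a paired-type homeodomain protein made in the hindlimb and not in the forelimb, where it helps to set hindlimb shape. Runx2 is a Runt-domain factor needed for the formation of osteoblasts, the bone-making cells, and also drives the late maturation of chondrocytes. Sox5 and Sox6 are closely related factors of the SoxD group with an HMG-box DNA-binding domain. They have no activation domain of their own and work beside Sox9 on cartilage genes. In the limb bud, mesenchymal cells first gather into condensations, then become cartilage, and bone forms later.

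By the RefSeq annotation (GRCm38.p6, used here for names and order only), the next protein-coding genes on either side of Runx2 are Clic5 and Supt3, and Supt3 overlaps Runx2. Sox5 lies between Etnk1 and Bcat1. Sox6 lies between Insc and 1110004F10Rik. A window can therefore hold regulatory DNA of a neighbour, and a peak in it is not assigned to a target gene here. Positions of the exons of these genes in mm9 were not used here.

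Pitx1 and other homeodomain proteins of its class recognise the bicoid-type motif TAATCC. The RefSeq promoter table was searched for it on both strands (TAATCC or GGATTA) in the 250 bases before each annotated start. It was present in 2054 of 32851 promoters (6.25%). The 1 promoter listed for Runx2 and the 1 listed for Sox5 did not hold these letters, and 1 of the 6 listed for Sox6 did. That sequence is shown because it was the only match among the promoters listed for these genes. It is on the minus strand at chr7:115801610-115801859 of GRCm38.p6, with the motif in capitals, 29 to 24 bases before the start.
Sox6 promoter: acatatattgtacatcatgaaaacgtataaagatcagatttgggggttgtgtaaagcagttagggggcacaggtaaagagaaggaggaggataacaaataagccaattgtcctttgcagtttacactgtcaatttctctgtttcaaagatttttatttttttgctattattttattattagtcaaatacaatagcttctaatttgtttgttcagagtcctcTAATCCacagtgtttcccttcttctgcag
The last bases before this start are rich in C and T and end in ag, the pattern found at the end of an intron. The match describes letters only, and since the peaks are placed on another build, whether a peak covers it was not tested.

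All 3 windows were denser in Pitx1 peaks than the autosomes as a whole, in each library and in the replicated regions. Replicated regions numbered 11 at Runx2, 14 at Sox5 and 14 at Sox6. Per Mb these are 11.0 (95% exact Poisson interval 5.49 to 19.7), 10.8 (5.89 to 18.1) and 14.0 (7.65 to 23.5), against 4.11 over the 19 autosomes (10145 regions, interval 4.03 to 4.19). The ratio to the autosomes outside the windows was 2.88 for the windows together (exact interval 2.05 to 3.94). For single windows it was 2.68 at Runx2 (1.34 to 4.80), 2.63 at Sox5 (1.44 to 4.41) and 3.41 at Sox6 (1.87 to 5.73). The intervals of the windows overlap one another, so the data set no order among them. Intervals cover counting error only, are too narrow where peaks cluster, and the number of reads behind each peak is not known. With 2 libraries of 1 condition there is no comparison of groups, and no p-value is given.

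The excess was present in each library taken alone. Replicate 1 had 15 peaks at Runx2, 17 at Sox5 and 18 at Sox6, which is 15.2 per Mb over the windows against 5.90 over the autosomes. Replicate 2 had 24, 30 and 29, which is 25.2 per Mb against 10. The ratios to the rest of the autosomes were 2.57 in replicate 1 (interval 1.91 to 3.39) and 2.52 in replicate 2 (2.0 to 3.12), each within the interval of the other.

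Such densities were in the upper part of the genome's range but not at its end. Of 2460 consecutive autosomal tiles of 1 Mb, 196 (7.97%) held at least the 11 replicated regions of the Runx2 window and 88 (3.58%) at least the 14 of the Sox6 window. Of 1889 tiles of 1.3 Mb, 141 (7.46%) held at least the 14 of the Sox5 window. The median tile held 3 regions at 1 Mb and 4 at 1.3 Mb, and the fullest held 34 and 40. The windows were drawn around named genes while the tiles lie anywhere, also over DNA without genes, so these shares are a description. Tiles begin at the first base of each autosome, and stretches where no peak can be called were not taken out.

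**Figure D1:**
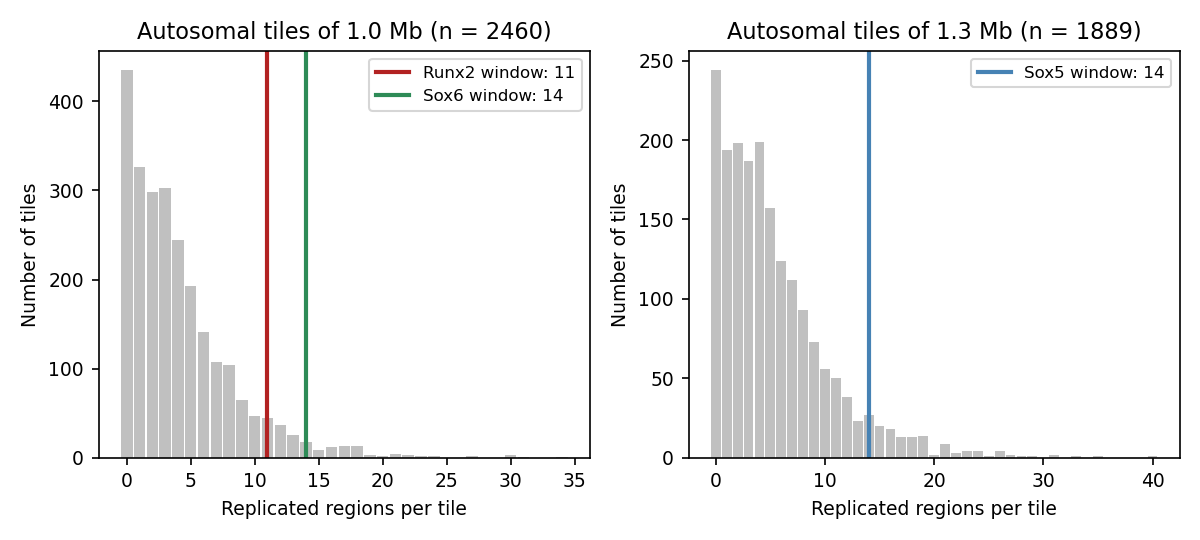
Number of autosomal tiles (vertical axis) by the replicated Pitx1 regions they hold (horizontal axis), for tiles of 1 Mb on the left and 1.3 Mb on the right; coloured lines mark the windows. The lines at 11, 14 and 14 stand in the right tail, with 7.97%, 3.58% and 7.46% of tiles at or above them.

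Recurrence between the libraries was close to the genome-wide level. Of the replicate 1 peaks in the windows, 39 of 50 overlapped a replicate 2 peak (78.0%, 95% Wilson interval 64.8 to 87.2%), beside 69.9% of all autosomal peaks. Of the replicate 2 peaks, 40 of 83 overlapped a replicate 1 peak (48.2%, 37.8 to 58.8%), beside 42.6%. Both intervals include the autosomal share. In replicate 1 the shared peaks were 11 of 15 at Runx2, 14 of 17 at Sox5 and 14 of 18 at Sox6, and in replicate 2 they were 11 of 24, 15 of 30 and 14 of 29. With this few peaks, no difference from the autosomes in the share that recurs was detectable.

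**Figure D2:**
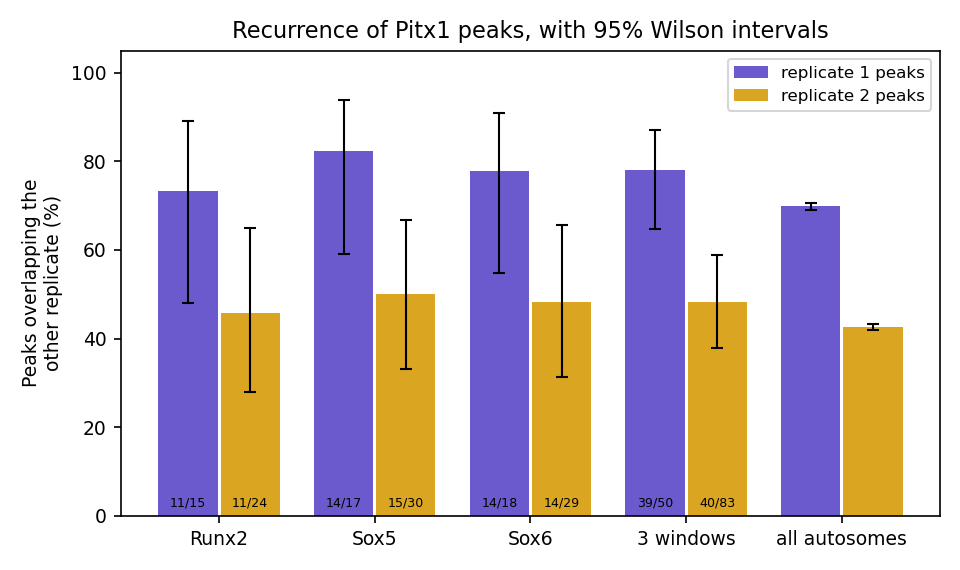
Percent of peaks that overlap a peak of the other replicate (bars, with 95% Wilson intervals) in each window, in the windows together and over the autosomes; the numbers in the window bars are shared peaks over all peaks. Every window's interval includes the autosomal share of its replicate, 69.9% or 42.6%.

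The Runx2 window held the strongest of the 39 regions, and that region lies inside the approximate span of the gene. Runx2 was taken to lie at about 44.63 to 44.95 Mb of chromosome 17, a span given with the choice of window and not checked against an mm9 annotation, and it is read toward lower coordinates by RefSeq (GRCm38.p6). Statements on the inside and the ends of the gene rest on that approximate span. The region chr17:44701845-44703591 had a peak score of 670.4 in replicate 1 and 1838 in replicate 2. The score column has no header; it was taken to be the peak caller's own value, higher for a stronger peak, and every statement on strength or rank rests on that reading. It was at rank 83 of 14753 in replicate 1 and at rank 12 of 25027 in replicate 2, and 27th of all 10274 replicated regions by the sum of both ranks. Scores of the libraries are on scales of their own and are compared here by rank. The region was also the widest replicated one of the windows, at 1747 bp, and its peak midpoints in the libraries lay 306.5 bp apart, against a median of 62.5 bp over the 39 regions. The authors' further list of 1 bp positions held at least 1 position in 38 of the 39 regions, beside 99.7% of the autosomal ones, and this was the region without one. If midpoints had to lie within 250 bp of each other, it would not count as replicated.

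The next regions of the Runx2 window lay beyond the 3′ end of the gene. The region chr17:44569004-44570428 scored 344 in replicate 1 and 258 in replicate 2. Beside it, with midpoints 1.9 kb apart, was chr17:44571126-44572106 with 189.8 and 95.7. The third by rank was chr17:44384650-44385523 with 269 and 259. Its peaks were 874 bp wide in replicate 1 and 429 bp in replicate 2, with midpoints 23.5 bp apart. At reciprocal overlap of 50% this region would not count as replicated, because its replicate 2 peak is too narrow. In all, 5 replicated regions lay in the 187 kb from 44384650 to 44572106.

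Inside the Runx2 span, which is 0.320 Mb long, 2 of the 11 regions were found, or 6.25 per Mb (interval 0.757 to 22.6). The low side of the span had 15.2 per Mb, the high side 11.4 and the autosomes 4.11, all within that interval. Beside the strongest region, the span held chr17:44754970-44755841, with scores of 116 and 96.6. Replicate 1 had 5 peaks in the span and replicate 2 had 7, so most of them were called in 1 library only. On the low side of the span, shared peaks were 5 of 5 in replicate 1 and 5 of 10 in replicate 2, and on the high side 4 of 5 and 4 of 7. After 44755841 the next replicated region began only at 45191174, which makes 436 kb between midpoints, the longest gap between neighbours in any of the windows. That gap covers the part of Runx2 toward its 5′ end and a stretch beyond it.

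The gap was not empty of single-library peaks. In replicate 1 the peaks were chr17:44807566-44808220 (score 79.5), chr17:44819870-44820414 (59.0), chr17:44861158-44861749 (74.6) and chr17:44995392-44995937 (59.6). Replicate 2 had chr17:44813732-44814158 (119) and chr17:44855035-44855659 (108) among others. For 3 of these 4 replicate 1 peaks the nearest replicate 2 peak lay between 5.50 and 5.71 kb away. All 4 were in the weaker 50% of the replicate 1 list.

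Beyond the gap, 4 replicated regions stood at the high end of the window. The region chr17:45191174-45192114 scored 127 and 242, and chr17:45218140-45218993 scored 96.9 and 390.5. The pair chr17:45265828-45266524 and chr17:45274641-45275505, 8.90 kb apart, scored 88.2 and 80.1 in replicate 1 and 62.7 and 168 in replicate 2. The libraries thus placed these regions differently, with chr17:45218140-45218993 in the strongest 5.72% of replicate 2 but only within the strongest 38.4% of replicate 1. A like gap in rank was seen at chr17:44436586-44438296, with scores of 110.25 and 540.4. By percent of the list, 5 of the 11 Runx2 regions ranked higher in replicate 2, beside 6647 of 10145 over the autosomes.

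**Figure D3:**
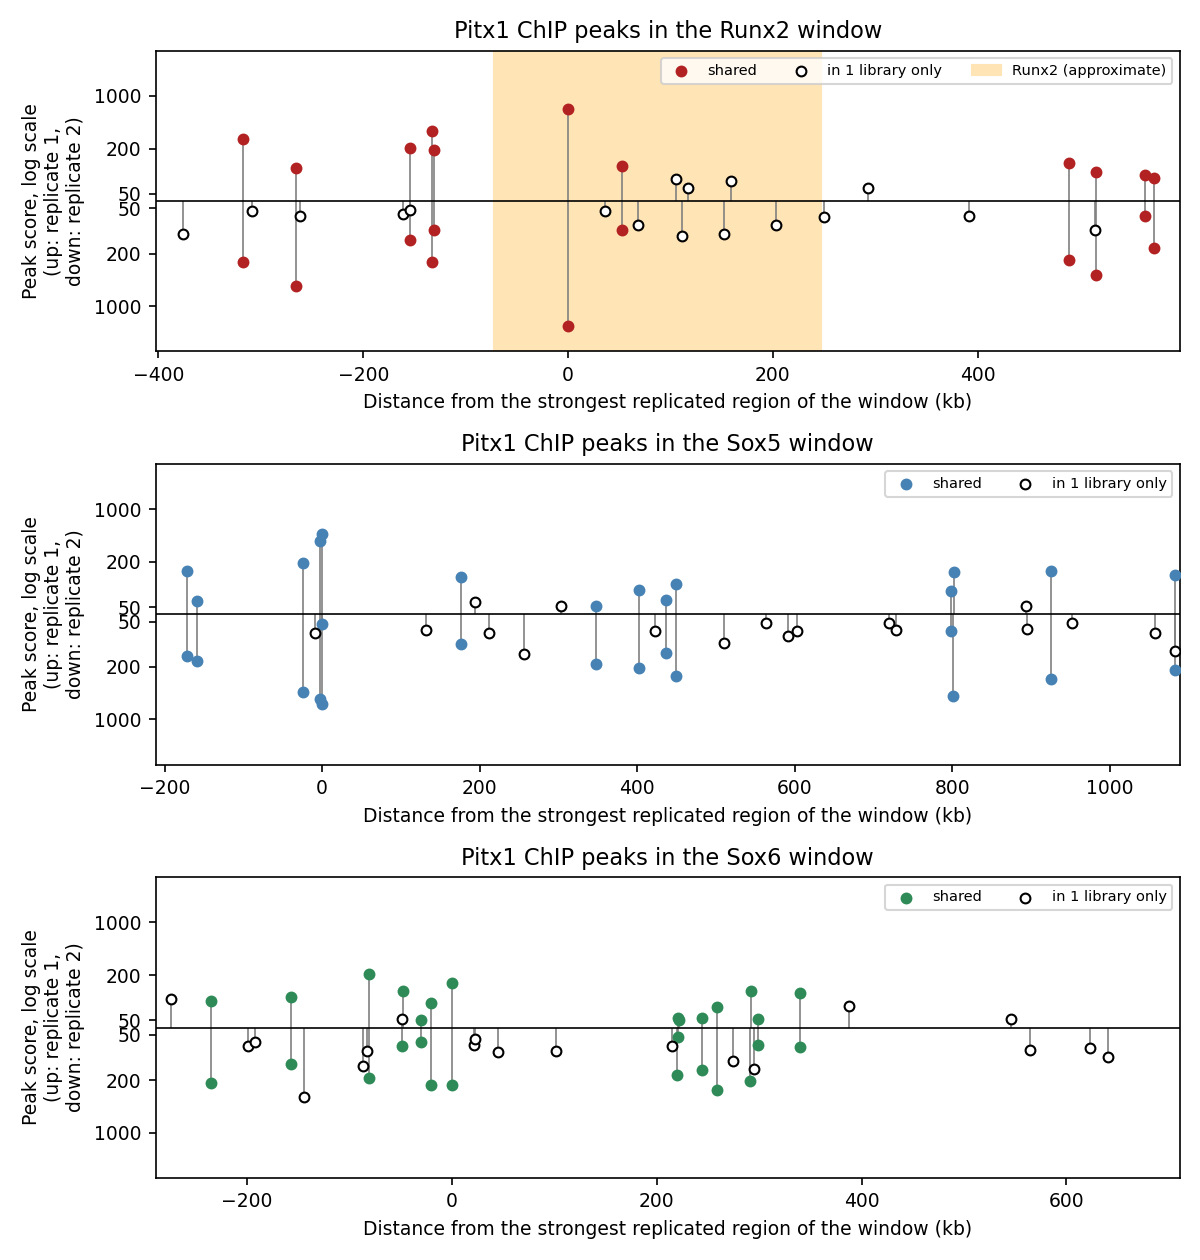
Peaks of the Runx2, Sox5 and Sox6 windows by distance in kb from the strongest replicated region of each window; stems give the peak score on a log scale, up for replicate 1 and down for replicate 2, from a base line below the lowest score. Filled points are shared peaks and open points peaks of 1 library, and in the Runx2 panel the shaded span is the gene, with its strongest region at 0 and the long gap to its right.

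The Sox5 window held 14 replicated regions, of which the strongest stood close together at its low end. The region chr6:143810805-143811876 scored 463 in replicate 1 and 620.1 in replicate 2, where it was made of 2 peaks. Its neighbour chr6:143807849-143808759, 3.04 kb away, scored 375 and 528. They were 299th and 459th of the replicated regions by summed rank. The third, chr6:143786917-143787861, scored 191 and 430.4 and lay 20.9 kb from that pair. With the regions at chr6:143639297-143640141 (152 and 142) and chr6:143652530-143653238 (60.6 and 165) they made 5 regions in 173 kb.

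The strongest Sox5 regions ranked high in both libraries, as an order by summed rank requires, and some weaker ones ranked unlike. The strongest region was in the best 1.8% of replicate 1 and the best 2.20% of replicate 2, and its neighbour in the best 3.15% and 3.10%. Lower in that order, chr6:143652530-143653238 was within the best 76.9% of replicate 1 and the best 22.1% of replicate 2. Outside the group of 5, chr6:144159015-144160225 was in the weakest part of replicate 1, with a score of 50.9 (rank 14447 of 14753), and scored 183 in replicate 2 (rank 4772). That region would not count as replicated at reciprocal overlap of 50% or by midpoints within 250 bp. By percent of the list, 10 of the 14 Sox5 regions ranked higher in replicate 2, beside 6647 of 10145 over the autosomes.

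Farther along the Sox5 window the regions were spread out. The regions chr6:144212494-144213850, chr6:144247457-144248696 and chr6:144260768-144261939 scored 83.2, 62.3 and 101 in replicate 1 and 206, 131 and 269 in replicate 2. Then 348 kb followed with no replicated region, up to the pair chr6:144609186-144609978 and chr6:144612711-144613502. In that stretch only replicate 2 had peaks, the strongest chr6:144321876-144322367 with a score of 96.8. The members of that pair, 3.52 kb apart, differed from each other in both libraries, with scores of 81.9 and 148 in replicate 1 and 65.8 and 487 in replicate 2. The regions chr6:144736351-144737057 (153 and 292) and chr6:144893287-144894401 (133 and 223) closed the window, the last with its midpoint 6.16 kb inside the edge.

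The Sox6 window held as many replicated regions as the Sox5 window in a shorter stretch. Its strongest region ranked below the strongest of the other windows. All 14 lay within 575 kb between the outer midpoints. The last 370.5 kb of the window had no replicated region, though each library had unshared peaks there. The strongest by summed rank was chr7:122788750-122789819, with scores of 154 and 235, at place 2315 of the replicated regions. It was followed by chr7:122707241-122708936 (206 and 188) and chr7:123080155-123081629 (123 and 208). With the best 50% of each list the window held 6 replicated regions, and with equal numbers of best peaks 9. Such settings cut the regions of the autosomes as well, and how many of those remained is not given here. The ratio of the 3 windows together to the rest of the autosomes was 3.45 and 2.87 at these settings, beside 2.88 with all peaks. The highest score in the window was 206 in replicate 1 and, at chr7:123047863-123048733, 269.8 in replicate 2.

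The Sox6 regions fell into a low and a high group. On the low side 7 regions ran from chr7:122553954-122554948 (91.2 and 218) to the strongest region. After 220.3 kb without a replicated region, where only replicate 2 had peaks, 7 more stood within 121 kb from 123009152 to 123129964. That stretch is the fullest 200 kb in any of the windows, next to 5 regions in the fullest 200 kb at Runx2 and at Sox5, while the fullest 200 kb of the autosomes held 17. Several members of the high group scored low in replicate 1. The regions chr7:123009152-123010049, chr7:123010307-123010958, chr7:123033319-123033954 and chr7:123087682-123088403 had replicate 1 scores of 53.05, 51.15, 53.29 and 52.45, all in the weakest 10% of that list. Their replicate 2 scores were 171, 53.8, 146 and 69.0. The other members, chr7:123047863-123048733, chr7:123080155-123081629 and chr7:123129070-123129964, were within the strongest 56.6%, 26.5% and 29.3% of the replicate 1 list. The autosomal share in the weakest 10% was not computed. In the weaker 50% of the replicate 1 list were 6 of the 14 Sox6 regions, beside 3815 of 10145 over the autosomes.

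The windows also differed in the strength of their regions, a difference that was not tested. The median replicated region was in the strongest 25.2% of the replicate 1 list at Runx2, 24.5% at Sox5 and 44.3% at Sox6, beside 37.9% over the autosomes. In replicate 2 the medians were 12.4%, 15.0% and 23.6%, beside 25.3%. Both libraries thus gave Sox6 the weakest median of the windows. Regions in the strongest 25% of both lists were 3 of 11 at Runx2, 6 of 14 at Sox5 and 2 of 14 at Sox6, beside 27.6% of the autosomal regions. In replicate 1 alone 14 of the 39 regions were in the strongest 25% of the list, beside 34.7% over the autosomes, and in replicate 2 alone 24 of 39, beside 49.6%. Scores rest on unknown read numbers, and the regions of a window are not independent of each other.

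**Figure D4:**
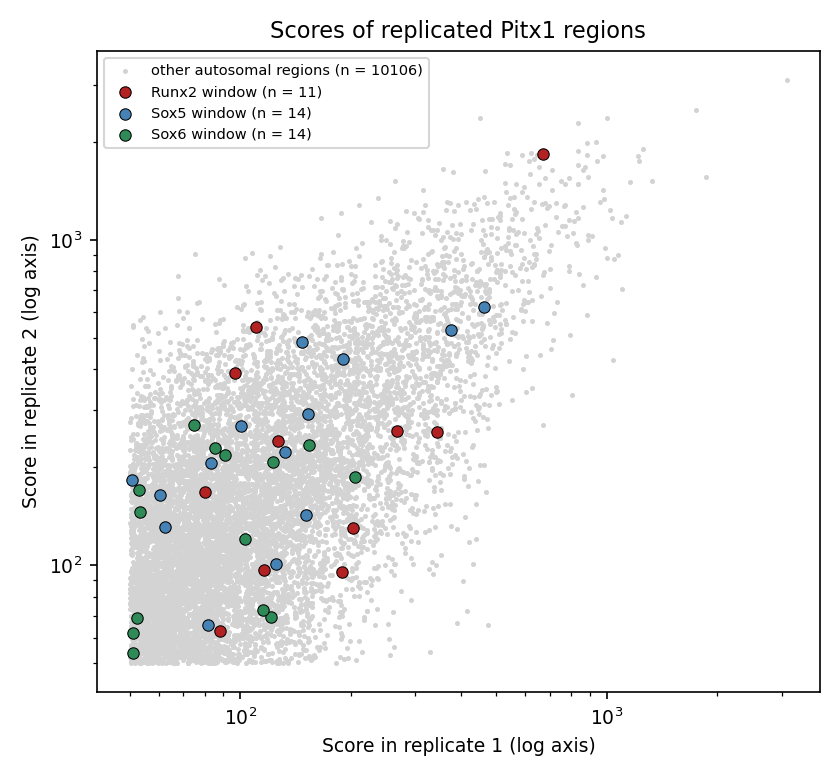
Score in replicate 1 (horizontal) and replicate 2 (vertical), both on log axes, of the 39 replicated regions of the windows (coloured by window) and the other 10106 autosomal ones (grey). The Runx2 region at 670.4 and 1838 stands far up, the Sox5 pair below it, and the Sox6 regions stay at or under 206 and 269.8.

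Replicated regions stood closer to each other in the windows than over the autosomes. The median distance between neighbours was 50 kb at Runx2, 53.6 kb at Sox5 and 23.0 kb at Sox6, beside 88.7 kb over the autosomes. Distances must be shorter where density is higher. Regions with another under 10 kb away were 14 of 39, beside 23.0% of autosomal regions, and all of them stood as pairs. There were 2 such pairs at Runx2, 2 at Sox5 and 3 at Sox6, the closest at Sox6 with midpoints 1.03 kb apart. No run of 3 or more was found, so none of the windows holds a tight cluster by that rule.

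The peaks called in 1 library only were mostly weak. In replicate 1 they were 11, with scores of 50.8 to 95.8 and a median of 59.0, beside a median of 64.1 for unshared autosomal peaks. Of these, 5 had a replicate 2 peak under 10 kb away without touching it, beside 31.2% of such autosomal peaks. In replicate 2 they were 43, with a median of 71.6, the same value as over the autosomes, and 14 had a replicate 1 peak under 10 kb away, beside 23.9%. The strongest of them was at Sox6, chr7:122644810-122645517, with a score of 341 (rank 1798 of 25027), 11.8 kb from any replicate 1 peak. In the other windows the strongest of replicate 2 were chr6:144067211-144067655 (134) and chr17:44813732-44814158 (119). In replicate 1 they were chr7:122514426-122515191 (95.8), chr17:44807566-44808220 (79.5) and chr6:144005076-144005853 (57.7).

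The window edges fell between regions. At Runx2 the first region inside was 85.1 kb and the last 24.9 kb from an edge, and the nearest outside were 172 and 52.7 kb away, the latter chr17:45352165-45353239 with scores of 308 and 246. At Sox5 the nearest outside were 61.2 kb away (230.5 and 115) and 259 kb away (95.9 and 123). At Sox6 they were 104 kb (134 and 174) and 374 kb away (108 and 50.5). Windows narrowed by 100 kb at both ends held 7 replicated regions at Runx2 in place of 11, while the ratio of the windows to the rest of the autosomes was 2.80.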

How the data were processed

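The submitters' processing notes name MACS 1.4.2, Bowtie 0.12.8, bedtools 2.16.2, CASAVA (versions 1.7 and 1.8.2) and build mm9. The sources used here do not give the step that each tool ran, its settings or how the input was used. The deposited peak lists give a position and a value per peak in a column without a header, taken here as the caller's score. Peaks are numbered from 1 in each list, and whether any reads were pooled for calling is not stated. Another deposited list gives 1 bp positions. Depth is unknown.

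Peaks were assigned to windows by midpoint, coordinates count from 1, and a region takes the best score of its peaks in each library. Autosome lengths run from the first base to the last peak. Stretches where no peak can be called were not taken out, so the autosomal rate may be too low. Ratios have exact conditional intervals. The regions named are the 3 strongest of each window by summed rank, runs of 3 or more, the strongest unshared peaks and those at the edges; all others were chosen after their values were seen. The windows and rules were chosen with earlier results of these data known. The linking and counting steps were tested on simulated data. Software was scipy 1.17.1, pandas 2.3.3, numpy 2.4.6 and matplotlib 3.10.9 under Python 3.11.15. The closing section gives the alternatives. No reference of build mm9 was used, so the peak sequences and their place relative to exons were not analysed here.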

Additional observations from a re-analysis of the deposited data

How the results depend on the processing

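No paired analysis was possible because no peak list was at hand for the inputs, the group whose replicate numbers match. The density ratio of the windows stayed between 2.52 and 3.45 under its 11 alternatives. The number of replicated regions fell in the best 25% of each list to 3 at Runx2, 6 at Sox5 and 2 at Sox6, in the best 50% to 6 at Sox6, with equal numbers of best peaks to 9 at Sox6, and in windows narrowed by 100 kb to 7 at Runx2. These settings keep fewer peaks or less sequence, and the autosomal counts left at them are not given here. The falls are therefore not compared with those over the autosomes. With each replicate left out in turn, the peaks of the other numbered 15 to 24 at Runx2, 17 to 30 at Sox5 and 18 to 29 at Sox6; the higher values are replicate 2 alone, without replicate 1. With equal numbers of best peaks the shared percentages were 64.0% in replicate 1 and 62.7% in replicate 2, which lists of equal length are bound to bring together. The other 49 of 60 values stayed within 1.5 times for counts, or within the interval given in the report for the ratio and the shares. For merged regions and for single libraries no share was computed. The read depth is unknown, which limits what can be said of peaks of 1 library.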

Other observations

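Among the replicate 1 peaks without overlap, the closest to a replicate 2 peak were chr7:122739870-122740555 in the Sox6 window, 4 bp from a replicate 2 peak that was itself shared, and chr6:144704795-144705229 in the Sox5 window, 0.600 kb from an unshared one. Peak widths followed the lists, with the replicate 1 peak the wider in 35 of the 39 regions, all 14 at Sox6 among them, beside 9372 of 10145 over the autosomes.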
